A study of Mus musculus with 35 samples.

Results

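The genes described here are those of blood coagulation and fibrinolysis, 33 genes taken by name: the clotting factors, the fibrinogen chains, the anticoagulant proteins and receptors, and the plasminogen system. Of these, 31 had a probe set annotated to 1 gene that passed the filter on low signal, out of 12679 genes tested in all. Cpb2 and Adamts13 were not analysed here. By the cells that are their main known source, the genes were split into 22 hepatocyte factors, of which 21 were tested, and 11 genes of endothelium, leukocytes and other cells or genes known to be induced, of which 10 were tested. Of several probe sets for a gene, the brightest on average was used. F13a1, Plau and Plat had signals below the filter in every control mouse and Procr in 4 of 5 control mice, so these genes passed the filter mainly through particle-treated mice, and counts over the genes tested are descriptions.

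RNA was measured in the left lateral liver lobe of BALB/c mice, 6 h after 1 intravenous injection, on 1 array per mouse with 5 mice in each of 7 groups. The mice received silica particles called SP70 at 10, 20 or 40 mg/kg, SP30 at 10 mg/kg or SP300 at 10 or 200 mg/kg, and control mice received deionized water, the vehicle. The names stand for particles of different size. One experiment asked how the response depends on the dose of SP70, and the other compared the sizes, once at 10 mg/kg and once at toxic doses taken from earlier work, namely 10 mg/kg of SP30, 40 mg/kg of SP70 and 200 mg/kg of SP300. Age, sex and genotype of the mice are not given in the sources used here.

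Clotting starts when tissue factor, the product of F3, meets factor VII, and it runs through factors IX, X, VIII and V to thrombin, which cuts fibrinogen to fibrin. Antithrombin, heparin cofactor II and the protein C pathway restrain it, the last with thrombomodulin and the endothelial protein C receptor as its receptors on the vessel wall. Plasmin dissolves the clot, and it is made from plasminogen by the activators tPA and uPA. Hepatocytes secrete most of the plasma factors, while sinusoidal endothelium is the main source of factor VIII, and tissue factor, thrombomodulin and the urokinase receptor are known to respond to inflammatory signals.

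The promoters of 5 of these genes are printed because their transcripts moved in different ways: Procr and Plaur rose, F3 and Klkb1 fell, and Fgb changed by a small amount. Each is the RefSeq window of 250 bases before and 50 bases after a transcription start, in build GRCm38.p6, read 5′ to 3′ on the strand of the gene. Capitals mark matches to the letters TGANTCA for AP-1, GGG and TTCC with any 3 bases between them for NF-kB, TTCNNNGAA for STAT and TTGCNNAA for C/EBP on either strand. The windows lie at chr2:155750967-155751266 (plus strand) for Procr, chr7:24462233-24462532 (plus strand) for Plaur, chr3:121723287-121723586 (plus strand) for F3, chr3:83049814-83050113 (minus strand) for Fgb and chr8:45294786-45295085 (minus strand) for Klkb1.
Procr: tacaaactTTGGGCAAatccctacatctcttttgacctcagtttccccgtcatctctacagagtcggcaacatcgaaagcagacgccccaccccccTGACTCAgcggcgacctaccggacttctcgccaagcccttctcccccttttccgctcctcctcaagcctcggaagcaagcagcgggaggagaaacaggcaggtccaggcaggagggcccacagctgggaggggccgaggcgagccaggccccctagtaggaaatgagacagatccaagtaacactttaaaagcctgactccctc
Plaur: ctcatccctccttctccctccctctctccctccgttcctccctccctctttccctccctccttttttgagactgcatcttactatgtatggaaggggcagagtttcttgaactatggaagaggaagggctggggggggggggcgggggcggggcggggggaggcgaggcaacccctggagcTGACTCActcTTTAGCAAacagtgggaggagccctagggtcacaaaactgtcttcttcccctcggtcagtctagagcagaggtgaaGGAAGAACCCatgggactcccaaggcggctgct
F3: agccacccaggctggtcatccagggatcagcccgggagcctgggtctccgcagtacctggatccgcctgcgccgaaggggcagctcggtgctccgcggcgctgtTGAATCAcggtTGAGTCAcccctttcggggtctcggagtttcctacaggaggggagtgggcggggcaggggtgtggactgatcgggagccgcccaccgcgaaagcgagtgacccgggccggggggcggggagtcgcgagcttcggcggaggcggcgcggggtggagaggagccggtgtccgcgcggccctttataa
Fgb: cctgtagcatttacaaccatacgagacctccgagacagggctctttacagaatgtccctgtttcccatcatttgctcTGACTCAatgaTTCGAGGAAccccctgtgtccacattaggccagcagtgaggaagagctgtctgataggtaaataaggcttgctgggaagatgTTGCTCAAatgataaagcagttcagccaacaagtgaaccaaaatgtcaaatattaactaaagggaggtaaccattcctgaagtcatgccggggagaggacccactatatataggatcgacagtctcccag
Klkb1: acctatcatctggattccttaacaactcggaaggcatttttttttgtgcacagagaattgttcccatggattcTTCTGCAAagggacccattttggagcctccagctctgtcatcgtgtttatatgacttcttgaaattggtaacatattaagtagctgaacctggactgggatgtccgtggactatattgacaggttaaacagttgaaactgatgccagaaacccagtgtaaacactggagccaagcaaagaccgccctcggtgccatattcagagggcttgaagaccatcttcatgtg
The AP-1 letters begin 154 bases before the start in Procr and 69 before it in Plaur, both genes that rose, and both windows also hold the C/EBP letters, at 242 and 59 bases. The AP-1 letters also occur in F3, where they begin 146 and 135 bases before the start, and in Fgb, at 173 bases. The Fgb window holds the STAT letters 162 bases and the C/EBP letters 80 bases before the start, and the NF-kB letters occur in Plaur, 17 bases after its start. The Klkb1 window holds 1 match, to C/EBP, 177 bases before the start. Of all 32851 windows in the table, 7.81% hold the AP-1 letters, 5.56% those of NF-kB, 8.30% those of STAT and 10.8% those of C/EBP. Among the windows of the coagulation and fibrinolysis genes the AP-1 letters were in 6, those of NF-kB in 3, of STAT in 4 and of C/EBP in 10 of 28, which belong to 26 of the 33 genes. In the 5 windows printed no match overlaps another. A match describes the letters of the window and is not a shown binding site.

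Among the hepatocyte factors most calls were lower, except after SP70 at 10 mg/kg, and the endothelial and inducible genes held most of the rises. F13a1, Procr and Plau, among these rises, passed the filter mainly through treated mice. The set also includes genes chosen because they are known to be induced, so its counts are descriptions and not a test of the set. After SP70 at 40 mg/kg, 4 of 10 endothelial and inducible genes rose and 1 fell, while 0 of 21 hepatocyte factors rose and 10 fell. A gene is called when its adjusted p from the limma fit is below 0.05. At this dose 15.6% of all genes tested were called higher and 28.8% lower. After SP30 at 10 mg/kg, 5 endothelial and inducible genes rose and 3 fell, and 3 hepatocyte factors rose and 8 fell, beside 18% higher and 31.3% lower among all genes. After SP300 at 200 mg/kg the counts were 4 up and 1 down for the endothelial and inducible genes and 0 up and 9 down for the hepatocyte factors, beside 12.6% and 18%. With arrays centred on their medians, 4 of all the genes described rose and 2 fell after this dose of SP300, where the uncentred values gave 4 and 10. After SP70 at 10 mg/kg 5 endothelial and inducible genes rose and 1 fell, and 3 hepatocyte factors rose and 0 fell, beside 12.5% and 5.69%. At 20 mg/kg the corresponding counts were 5 and 1, and 1 and 7, beside 18.8% and 20.9%. After SP300 at 10 mg/kg 0 of the 31 genes were called in limma, beside 0.923% higher and 0.244% lower among all genes. Before adjustment 7 of the 31 had a p below 0.05. The share of all genes at that unadjusted threshold was not computed, so this count is a description. The 6 comparisons share the same 5 control mice. Of 12 markers of hepatocytes, 0 rose and 3 fell in mice given SP70 at 40 mg/kg, 2 and 2 in those given SP30, and 1 and 6 after SP300 at 200 mg/kg. Their summed signal was 578896 to 694585, 667427 to 744799 and 606975 to 682583 in these groups, against 679608 to 706221 in control mice, and their part in the changes of the hepatocyte factors was not tested.

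After SP70 at 40 mg/kg the median log2 change was -0.28 for 14 hepatocyte factors and -0.09 for the other 7, whose signals are in the brightest 0.5% of all values, and -0.09 over all genes tested. The median of all 21 lay between -0.19 after SP70 at 40 mg/kg and 0.08 after SP300 at 10 mg/kg among the 6 groups. After SP70 at 10 mg/kg it was 0.06, and -0.01 after quantile normalization, so its sign there depends on the scaling. No median is given for the endothelial and inducible genes, 4 of which passed the filter mainly through treated mice.

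**Figure D1:**
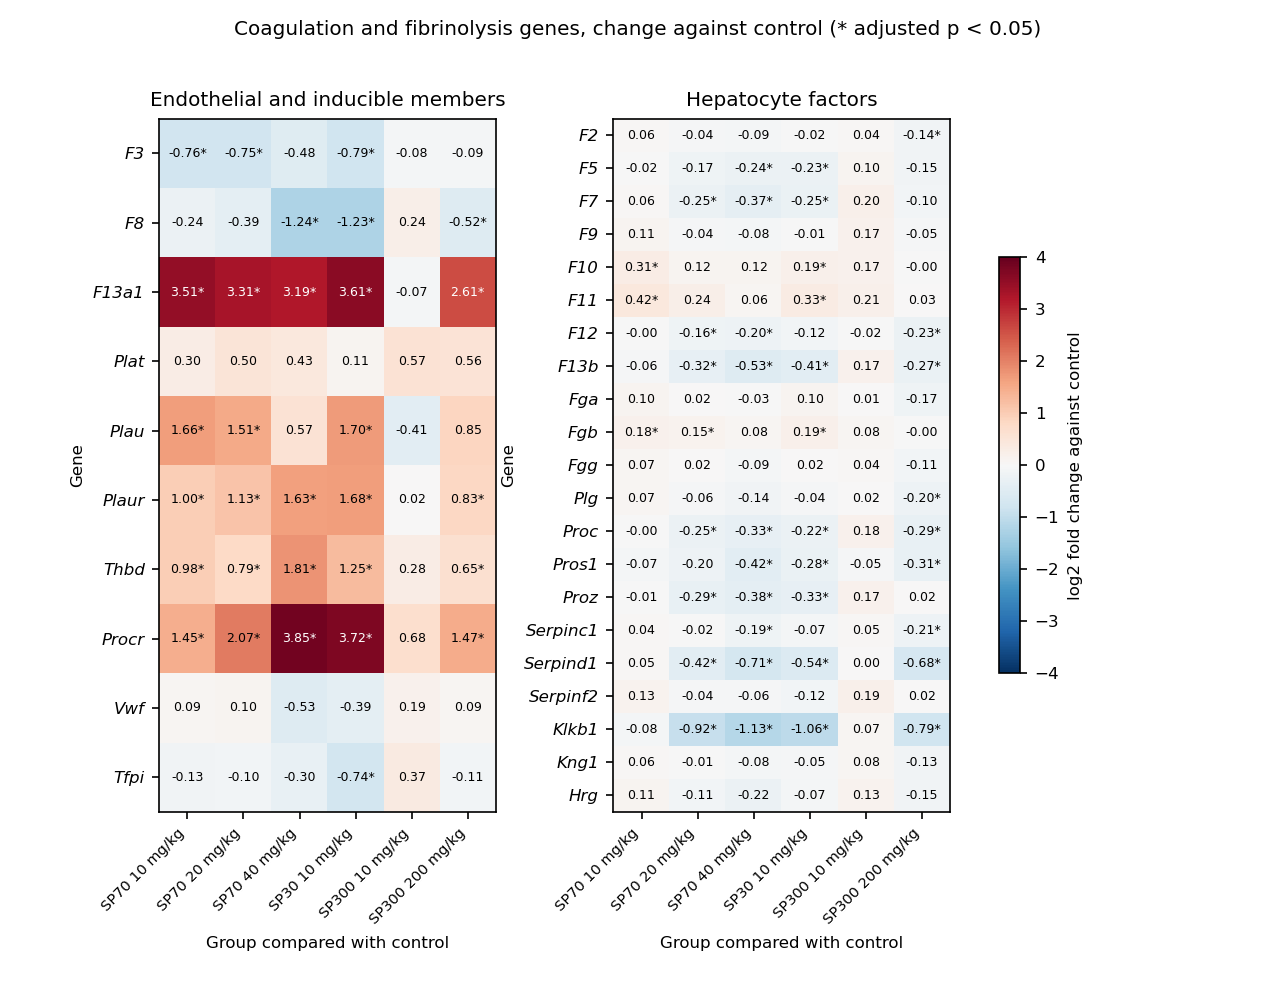
Log2 fold change against control of the 10 endothelial and inducible genes (left) and the 21 hepatocyte factors (right), in rows, for the 6 particle-treated groups, in columns. Red is higher and blue lower than control, and a star marks an adjusted p below 0.05. F13a1 and Procr carry the darkest red, Klkb1 is the bluest hepatocyte factor, and the SP300 10 mg/kg columns hold no star.

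The arrays had median signals from 149 to 180.2, and 0 pairs of arrays were identical. Summed signals of 12 hepatocyte markers ran from 578896 to 808472 over the 35 mice, with none of the 12 group means below the filter of 165 in any group. Signals are whole-lobe values, in which fewer cells of a type and less RNA per cell cannot be told apart. No batch is given in the sources used here. Signal levels are compared between groups for 1 probe set and not between genes.

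F13a1, the catalytic A subunit of the fibrin-crosslinking factor XIII, rose in 5 of the 6 groups. F13a1 is known to be made by monocytes, macrophages and platelets. Its signals were 1221, 1497, 1349.8, 2026 and 1265 in the 5 mice given 10 mg/kg of SP70, 1224, 1281, 1367, 1081 and 1359 at 20 mg/kg and 908, 1430.1, 1181, 1309.6 and 1044 at 40 mg/kg. They were 1765, 1367, 1277, 2054 and 1429.6 after SP30 at 10 mg/kg and 770.5, 634, 752, 835 and 882 after SP300 at 200 mg/kg. After SP300 at 10 mg/kg they were 86.9, 161, 131, 79.0 and 107, against 109.9, 151, 109, 109.9 and 103 in control mice. All 25 mice of the 5 groups that rose lay above every control mouse, while the group given SP300 at 10 mg/kg overlapped with control. Because every control signal was below the filter of 165, folds were computed with low signals raised to that value and are lower bounds that leave out the spread between mice. F13a1 was at least 8.77-fold, 7.62-fold and 7.03-fold higher after 10, 20 and 40 mg/kg of SP70, at least 9.42-fold higher after SP30 and at least 4.67-fold higher after 200 mg/kg of SP300. The log2 change, which includes a pseudocount of 12.5 and depends on it here, was 3.61 ± 0.16 (SE, adjusted p = 2.54e-19) after SP30 and 2.61 ± 0.16 (adjusted p = 5.80e-15) after SP300 at 200 mg/kg. Between 40 and 10 mg/kg of SP70 the difference was -0.32, with a 95% interval of -0.64 to 0.01 (adjusted p = 0.139), so no further rise with dose was detected. F13b, the carrier B subunit of factor XIII made by hepatocytes, fell in 4 of the 5 groups in which F13a1 rose, all but SP70 at 10 mg/kg. Its mean signal fell to 17944 ± 1638 after SP70 at 40 mg/kg, against 25810.2 ± 2064 in control mice (SD, n = 5; log2 change -0.53 ± 0.07, adjusted p = 9.96e-08). After SP300 at 200 mg/kg, 9 of 21 hepatocyte factors were called lower, and 2 with arrays centred on their medians. Most calls of lower hepatocyte factors in that group thus depend on the scaling.

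Markers of monocytes were higher in the groups in which F13a1 rose. Over the doses of SP70 their mean sum increased and the F13a1 mean did not. Brighter markers weigh more in such a sum. Of 8 monocyte markers tested, 8 rose at each dose of SP70, 8 rose in mice given SP30, and 5 rose after SP300 at 200 mg/kg. Mean summed signals were 58863, 68957 and 71154 at 10, 20 and 40 mg/kg of SP70, where F13a1 averaged 1472 ± 327, 1262 ± 117 and 1175 ± 207. The sums ran from 52315 to 65319 at 10 mg/kg and from 65329 to 76335 at 20 mg/kg. They ran from 54898 to 79976 after SP70 at 40 mg/kg, from 71051 to 83189 after SP30 and from 49904 to 63779 after SP300 at 200 mg/kg, against 39543 to 41624 in control mice. In control mice 3 of the 8 marker means were below the filter, against 0 after SP70 at 40 mg/kg. Kupffer cell markers moved the other way: 11 of 12 fell in mice given 40 mg/kg of SP70 and 10 in mice given SP30, with sums of 1890.2 to 3138 and 8542 to 18906, against 27491 to 39763 in control mice. Of these 12 markers 10 had means below the filter at 40 mg/kg of SP70 and 2 in mice given SP30, against 1 in control mice. The Kupffer sums were 10591 to 18046 and 2855 to 5287 at 10 and 20 mg/kg of SP70. After SP300 at 200 mg/kg, where F13a1 rose least, they were 1976 to 2512. In these groups 1, 5 and 10 of the marker means were below the filter. Of 8 platelet and megakaryocyte markers tested, 1 rose and 1 fell after SP70 at 10 mg/kg, and 3 rose and 1 fell after SP30. Summed signals of the 10 with a probe set were 2242 to 2827 after SP70 at 10 mg/kg and 3055 to 4782 after SP30, against 2091 to 2958 in control mice, with 6 and 4 of the 10 means below the filter in these treated groups, against 7 in control mice. The platelet sums were 2059 to 2626 and 3214 to 3995 at 20 and 40 mg/kg of SP70 and 2316 to 2573 after SP300 at 200 mg/kg. In these groups 5, 4 and 5 of the means were below the filter. The part of these cells in the rise of F13a1 was not tested.

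**Figure D2:**
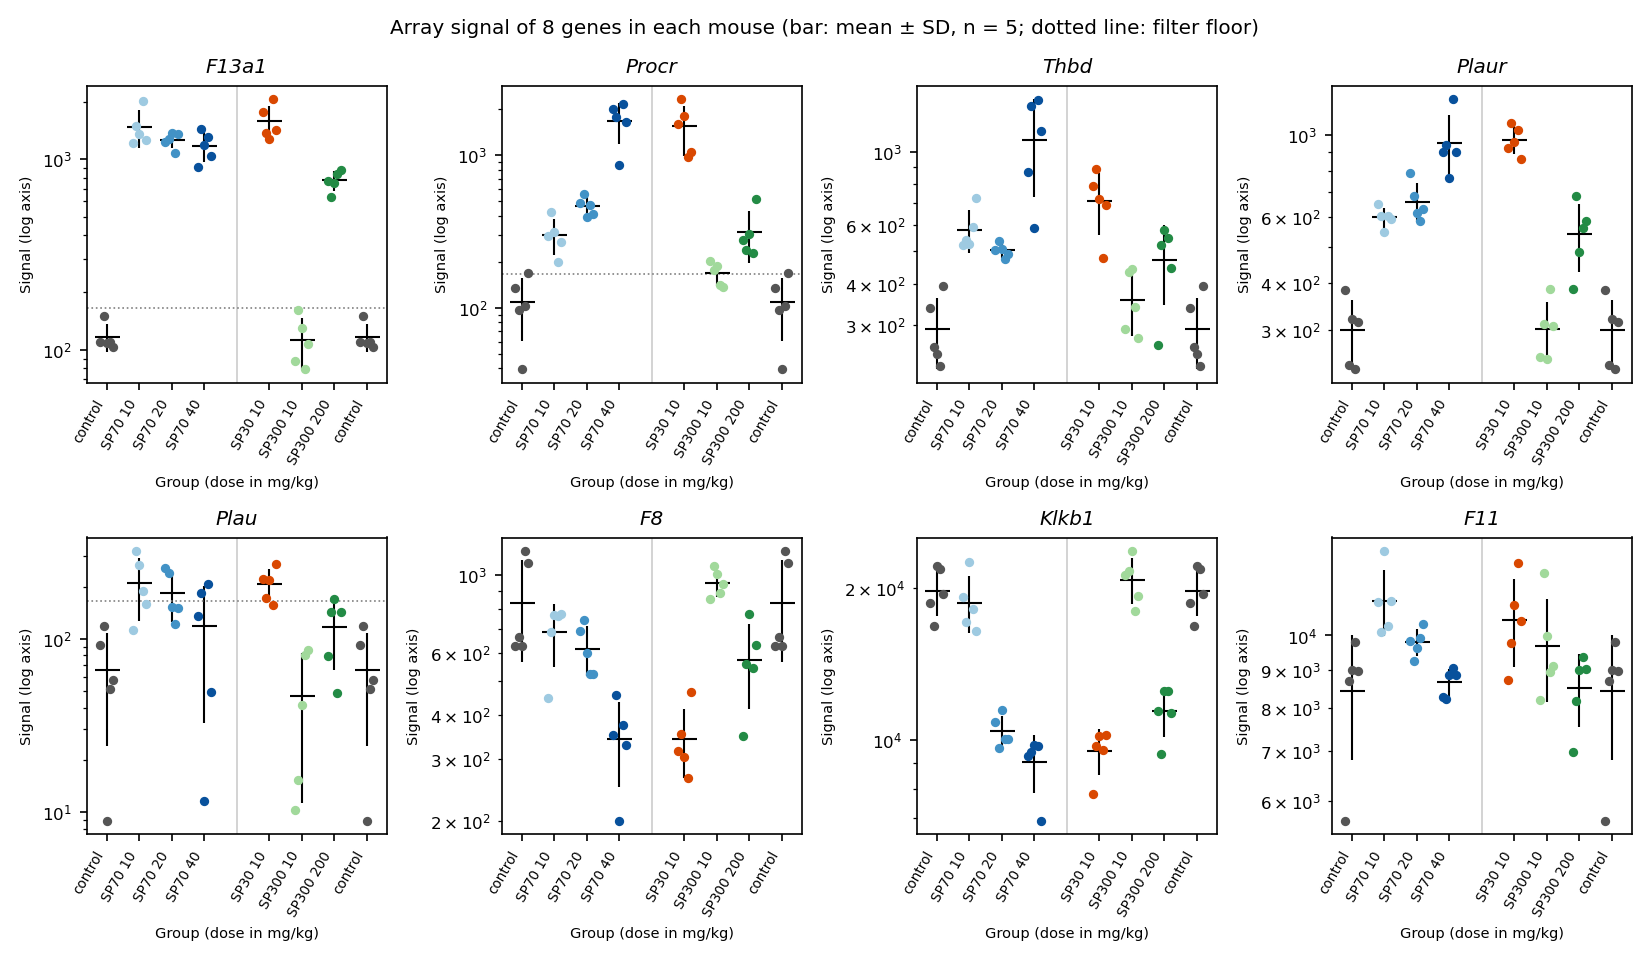
Array signal (log axis) of 8 genes in each of the 35 mice. In each panel the dose series of SP70 stands left of the grey line, with control at the low end, and SP30, SP300 and control stand right of it, the same control mice being drawn on both sides. Bars give the mean and SD of 5 mice, and the dotted line is the filter of 165. F13a1 is high at every dose of SP70, Procr means increase with the dose, and F8 and Klkb1 are low after SP30 and SP70 at 40 mg/kg.

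Procr and Thbd, the receptors that speed the activation of protein C, rose after every treatment but SP300 at 10 mg/kg. Procr encodes the endothelial protein C receptor. Its signals were 296, 420.1, 312, 199 and 270.5 at 10 mg/kg of SP70, 486, 553, 389.9, 468 and 410.1 at 20 mg/kg and 1982, 1772, 852, 2139 and 1641 at 40 mg/kg. After SP30 at 10 mg/kg they were 1591, 2302, 1797, 973 and 1041. SP300 gave 276, 237, 302, 227 and 511 at 200 mg/kg and 201, 176, 188, 139.8 and 137 at 10 mg/kg, against 134, 96.7, 39.5, 103 and 168 in control mice. The groups that rose did not overlap with control, and replicate 3 at 40 mg/kg of SP70 was the lowest of its group. Procr was at least 9.67-fold higher after SP70 at 40 mg/kg and at least 8.83-fold higher after SP30 (log2 changes 3.85 ± 0.27 and 3.72 ± 0.27, adjusted p = 8.76e-14 and 1.50e-13). After SP300 at 200 mg/kg it was at least 1.79-fold higher (adjusted p = 6.53e-05). Between the doses of SP70 the log2 difference was 1.78 ± 0.27 between 40 and 20 mg/kg (adjusted p = 3.93e-05), and 0.63 ± 0.27 between 20 and 10 mg/kg, which was not called (adjusted p = 0.108).

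Thbd encodes thrombomodulin, which turns thrombin from a clotting into an anticoagulant enzyme. Its signals were 521, 539.5, 526, 594 and 724 at 10 mg/kg of SP70, 505, 539, 509.7, 473 and 492 at 20 mg/kg and 869, 1371, 589.9, 1431 and 1157 at 40 mg/kg. SP30 gave 788, 889, 719, 477 and 688, SP300 gave 260.5, 524, 579, 548 and 447 at 200 mg/kg and 292, 434, 441, 339.9 and 275 at 10 mg/kg, and control mice had 337, 257, 245, 226 and 394. Every mouse given SP70 or SP30 lay above the highest control mouse, whereas 1 of 5 mice given SP300 at 200 mg/kg lay within the control range. Thbd rose 3.61-fold after SP70 at 40 mg/kg (log2 change 1.81 ± 0.21, adjusted p = 8.63e-09) and 2.45-fold after SP30 (1.25 ± 0.21, adjusted p = 5.43e-06). After 200 mg/kg of SP300 it rose 1.59-fold (0.65 ± 0.21, adjusted p = 0.0163), a call that was lost without control replicate 4 or without replicate 3 of that group, with adjusted p up to 0.0522. Between 20 and 10 mg/kg of SP70 it differed by -0.19 ± 0.21 (adjusted p = 0.589), and between 40 and 20 mg/kg by 1.02 ± 0.21 (adjusted p = 0.00125).

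Both receptors rose in groups in which markers of endothelium, the cell type they are known from, were lower, and also at doses at which the summed markers overlapped with control. Of 12 endothelial markers, 9 fell and 1 rose after SP70 at 40 mg/kg, and 9 fell and 1 rose after SP30, the riser being Lyve1, a hyaluronan receptor, in both. Their summed signal ran from 5254 to 13099.6 after SP70 at 40 mg/kg and from 8018 to 13419 after SP30, against 19907 to 29081 in control mice. At 10 and 20 mg/kg of SP70 2 and 4 fell and 1 and 2 rose, with sums of 16671 to 24097 and 17502 to 21303, which overlapped with control. After SP300 at 200 mg/kg 5 fell and 2 rose, with sums of 9448 to 20047. In the groups given SP70 at 40 mg/kg or SP30, 2 of the 12 marker means were below the filter, against 0 in control mice. The part of these cells in the Procr and Thbd results was not tested.

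In the plasminogen system, the receptor of urokinase rose in 5 groups and urokinase itself in 3. Plaur, the urokinase receptor of leukocytes and endothelium, had signals of 652, 604, 548, 605 and 593 at 10 mg/kg of SP70, 788, 686, 616, 586 and 632 at 20 mg/kg and 899.9, 941, 764, 1242 and 900.2 at 40 mg/kg. SP30 gave 921, 1074, 958, 1027 and 863, SP300 gave 386, 684, 485, 561 and 587 at 200 mg/kg and 254, 312, 249.8, 386 and 307 at 10 mg/kg, and control mice had 382, 241, 321, 235 and 314. Only the group given SP300 at 10 mg/kg overlapped with control. Plaur rose 2.04-fold at 10, 2.24-fold at 20 and 3.19-fold at 40 mg/kg of SP70, 3.29-fold after SP30 and 1.81-fold after SP300 at 200 mg/kg. The log2 change after SP30 was 1.68 ± 0.14 (adjusted p = 8.89e-12).

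Plau, urokinase itself, was close to the limit of the array. Its signals were 113, 321, 268, 189 and 159 at 10 mg/kg of SP70, 257, 239, 153, 121 and 151 at 20 mg/kg and 136, 184, 11.5, 208 and 49.1 at 40 mg/kg. They were 221, 172, 218, 156 and 270.3 after SP30, 79.7, 142, 169.9, 48.7 and 142 after SP300 at 200 mg/kg and 10.2, 15.2, 41.5, 80.6 and 86.3 after SP300 at 10 mg/kg, against 91.7, 118, 8.86, 51.4 and 57.5 in control mice. Every control signal was below the filter, so the bounds are small: at least 1.29-fold and 1.18-fold higher after 10 and 20 mg/kg of SP70 and at least 1.25-fold higher after SP30. The groups given SP30 or SP70 at 20 mg/kg did not overlap with control, and the other groups did. The 3 groups with a bound given here were called (adjusted p = 0.0189, 0.0164 and 0.0056), and SP70 at 40 mg/kg was not (0.57 ± 0.51, adjusted p = 0.382). The calls at 10 and 20 mg/kg of SP70 were lost without control replicate 3, the control mouse with the lowest signal, and that at 10 mg/kg also without treated replicate 2, with adjusted p up to 0.0925 and 0.0838 over the settings tried. Plat, the tissue plasminogen activator, was below the filter in all 5 control mice and in 3 or 4 of 5 mice of each treated group, and was not called in any comparison between groups. Plg, plasminogen, had a mean signal of 66125 ± 6102 after SP70 at 40 mg/kg and 72684 ± 1559.6 in control mice (-0.14 ± 0.06, adjusted p = 0.074). After SP300 at 200 mg/kg it fell to 63352 ± 1696 (-0.20 ± 0.06, adjusted p = 0.0176), and with arrays centred on their medians this was not called (adjusted p = 0.215). Serpinf2, the plasmin inhibitor, was not called against control in any group, with log2 changes from -0.12 to 0.19.

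Neutrophils also carry the urokinase receptor, and the summed signal of their markers was above control in the 5 groups in which Plaur rose. Of 9 neutrophil markers tested, 7 rose after SP70 at 40 mg/kg, 8 after SP30 and 4 after SP300 at 200 mg/kg. Their summed signal ran from 26616 to 64567 after SP70 at 40 mg/kg, from 49502 to 67569 after SP30 and from 10613 to 25913 after SP300 at 200 mg/kg, against 1159.7 to 3373 in control mice. At 10 and 20 mg/kg of SP70 it ran from 18947 to 26997 and from 19799 to 30518, with 2 marker means below the filter in each group. After SP300 at 10 mg/kg, where Plaur was not called, it ran from 1458 to 2398, with 5 marker means below the filter. Of the 9 marker means, 1 was below the filter after SP70 at 40 mg/kg, 0 after SP30 and 4 after SP300 at 200 mg/kg, against 6 in control mice. Their part in the rise of Plaur was not tested.

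The trigger of clotting was not called higher in any group. F3, tissue factor, had signals of 131, 305, 282, 158 and 168 at 10 mg/kg of SP70, 197, 167, 283, 170.4 and 197 at 20 mg/kg and 219, 263, 300.1, 255 and 191 at 40 mg/kg. SP30 gave 208, 275, 233, 122 and 165, and SP300 gave 195, 360.0, 322, 469 and 326 at 200 mg/kg and 242, 639, 314, 273 and 276 at 10 mg/kg, against 273, 356, 312, 460.3 and 346 in control mice. Every treated group overlapped with control. F3 fell after SP70 at 10 mg/kg (-0.76 ± 0.25, adjusted p = 0.0304) and 20 mg/kg (-0.75 ± 0.25, adjusted p = 0.0159) and after SP30 (-0.79 ± 0.25, adjusted p = 0.00884). At 40 mg/kg of SP70 it was at -0.48 ± 0.25, which was not called (adjusted p = 0.121), and after SP300 it was at -0.08 and -0.09 at 10 and 200 mg/kg. Signals of some mice fell below the filter, 2 of 5 after SP30, and the call at 10 mg/kg of SP70 was lost in 7 of 20 settings tried, among them leaving out control replicate 2 or 4 or treated replicate 1, 4 or 5, with adjusted p up to 0.108. At 20 mg/kg it was lost without control replicate 4 (adjusted p = 0.0531).

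F7, the partner of tissue factor from hepatocytes, fell to 6966 ± 497 after SP70 at 40 mg/kg, against 9019 ± 973 in control mice (-0.37 ± 0.10, adjusted p = 0.00226). It fell at 20 mg/kg of SP70 and in mice given SP30 as well (-0.25 ± 0.10 and -0.25 ± 0.10, adjusted p = 0.0428 and 0.0297), but these calls were lost in 9 and 8 of 21 settings. At 20 mg/kg these were mainly leaving out control replicate 1, 2 or 3 or treated replicate 1, 2, 4 or 5, and after SP30 leaving out control replicate 1 or 3 or treated replicate 1, 2 or 3, with adjusted p up to 0.12 and 0.127. Tfpi, the inhibitor of the tissue factor complex made by endothelium, fell after SP30 to 270.0 ± 130.4, against 436 ± 109 in control mice (-0.74 ± 0.22, adjusted p = 0.00456). The log2 changes of its 4 probe sets were -0.74 ± 0.22, -0.56 ± 0.29, -1.16 ± 0.26 and -1.51 ± 0.28 after SP30, and the second of these was not called (adjusted p = 0.119). After SP70 at 40 mg/kg the probe sets disagreed, at -0.30 ± 0.22, 0.18 ± 0.29, -1.07 ± 0.26 and -1.08 ± 0.28, and only the last 2 were called.

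F8, the cofactor of factor IX that sinusoidal endothelium makes, fell in both groups in which 9 of 12 endothelial markers fell. Its signals were 446, 689.7, 769.8, 762 and 773 at 10 mg/kg of SP70, 691, 743, 598, 523 and 524 at 20 mg/kg and 351, 457, 200.4, 374 and 328 at 40 mg/kg. They were 317, 354, 304, 266 and 465 after SP30, 349, 557, 776, 543 and 631 after SP300 at 200 mg/kg and 854, 1057, 1005, 885 and 942 after SP300 at 10 mg/kg, against 628, 664, 629, 1167 and 1077 in control mice. All mice given SP30 or SP70 at 40 mg/kg lay below the lowest control mouse, and the other groups overlapped with control. F8 was 2.42-fold lower after SP70 at 40 mg/kg (-1.24 ± 0.20, adjusted p = 5.52e-06) and 2.39-fold lower after SP30 (-1.23 ± 0.20, adjusted p = 5.60e-06). The 12 endothelial markers had a median log2 change of -1.26 and -1.47 in these groups, and the part of that cell type in the fall of F8 was not tested. The difference between 40 and 20 mg/kg of SP70 was called (-0.86 ± 0.20, adjusted p = 0.00521), and that between 20 and 10 mg/kg was not (-0.14 ± 0.20, adjusted p = 0.687). After SP300 at 200 mg/kg the call (-0.52 ± 0.20, adjusted p = 0.0488) was lost in 13 of 21 settings, among them leaving out control replicate 4 or 5 or treated replicate 1, 2 or 4, with adjusted p up to 0.19. Vwf, the endothelial carrier of factor VIII, was at 198 ± 96.6 in mice given SP70 at 40 mg/kg and 209.6 ± 65.8 in those given SP30, against 275 ± 61.1 in control mice, and was not called (adjusted p = 0.101 and 0.221).

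**Figure D3:**
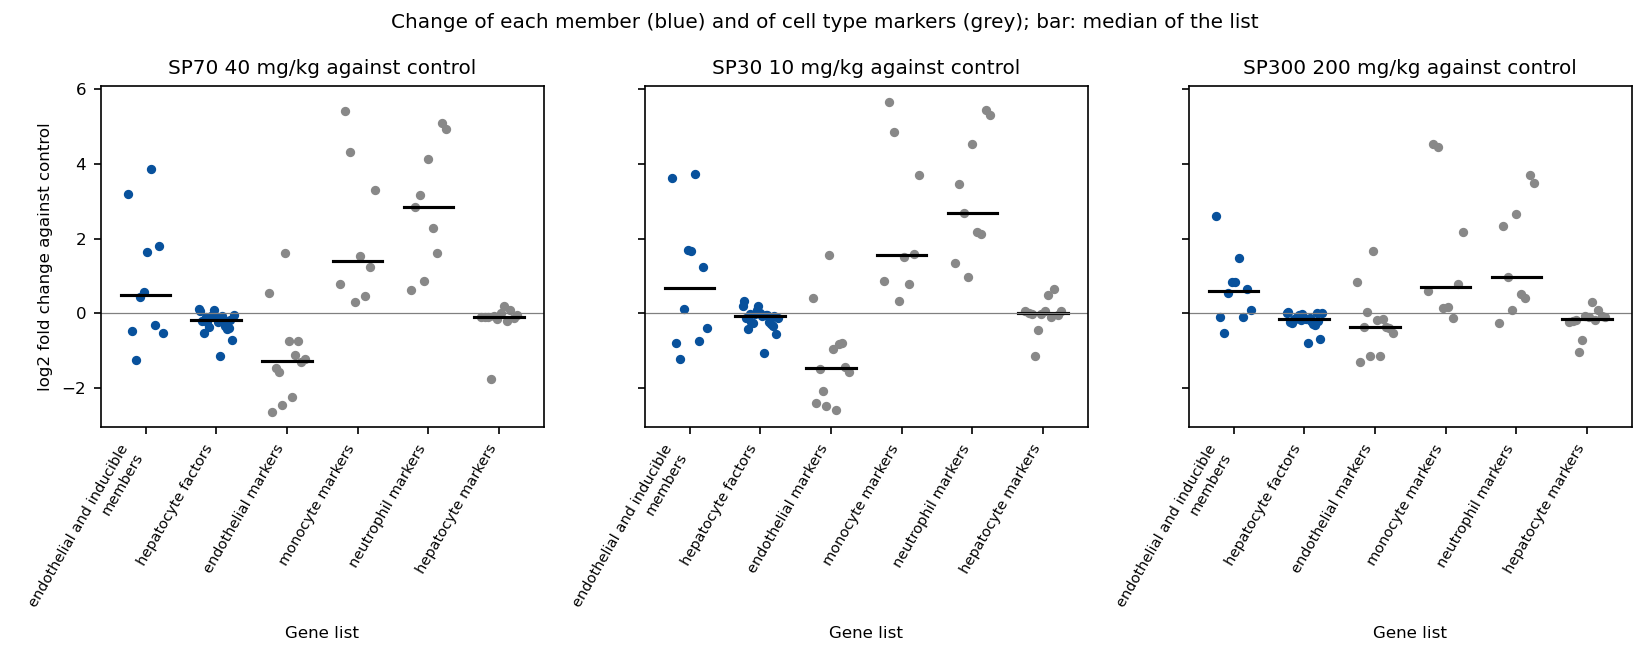
Log2 fold change against control of each coagulation gene (blue) and of each marker of endothelium, monocytes, neutrophils and hepatocytes (grey), for mice given 40 mg/kg of SP70, 10 mg/kg of SP30 or 200 mg/kg of SP300. Each point is 1 gene and each bar the median of its list. The list of endothelial and inducible genes holds some that passed the filter mainly through treated mice, which raises its median. Most hepatocyte factors and hepatocyte markers lie close to 0, while the endothelial and inducible genes spread in both directions.

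Klkb1, plasma prekallikrein of the contact system, changed most among the hepatocyte factors. Its signals were 19254, 17121, 22559.6, 18193 and 16479.7 at 10 mg/kg of SP70, 10858, 9642, 11479, 10045 and 10031 at 20 mg/kg and 9291, 9470.5, 9769, 9739 and 6906 at 40 mg/kg. They were 7801, 9722, 10195, 9526 and 10224 after SP30, 11426, 9370.0, 12490.2, 12478 and 11304 after SP300 at 200 mg/kg and 21273, 21639.6, 23714, 18004 and 19331 after SP300 at 10 mg/kg, against 18683, 16831, 22098, 21814 and 19506 in control mice. The groups given SP30, SP70 at 20 or 40 mg/kg or SP300 at 200 mg/kg lay below all control mice, and both other groups overlapped with control. Klkb1 was 1.89-fold and 2.20-fold lower at 20 and 40 mg/kg of SP70, 2.08-fold lower after SP30 and 1.73-fold lower after SP300 at 200 mg/kg (log2 change -0.79 ± 0.10, adjusted p = 1.66e-07). The fall appeared between 10 and 20 mg/kg of SP70, where the difference was -0.84 ± 0.10 (adjusted p = 1.11e-06), and the further difference to 40 mg/kg was -0.21 ± 0.10 (adjusted p = 0.177).

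F11, factor XI, is the next protein-coding gene to Klkb1 on chromosome 8 and encodes a related protease, and it was not called lower in any group. Its signals were 11092, 10120.4, 12982, 10294 and 11115 at 10 mg/kg of SP70, 9830.4, 9249, 9623, 9921 and 10365 at 20 mg/kg and 8282, 8225, 8852, 9042 and 8856 at 40 mg/kg. They were 8713, 9773, 11002, 12524 and 10469 after SP30, 6971, 8158, 8982, 9346 and 9009 after SP300 at 200 mg/kg and 8198, 12138, 9974, 8942 and 9097 after SP300 at 10 mg/kg, against 5641, 8686, 8994, 9795 and 8973 in control mice. All 5 mice given SP70 at 10 mg/kg lay above every control mouse, and the other groups overlapped with control. F11 rose at 10 mg/kg of SP70 (0.42 ± 0.11, adjusted p = 0.0066) and after SP30 (0.33 ± 0.11, adjusted p = 0.0138), where Klkb1 fell by 1.06 on the log2 scale. The difference between both genes was not tested. The rise after SP30 was lost without control replicate 1, without SP30 replicate 4 or with only the groups compared in the fit, with adjusted p up to 0.101. F12, factor XII, which is activated together with prekallikrein, fell to 7531 ± 722 after SP300 at 200 mg/kg and to 7642 ± 676 after SP70 at 40 mg/kg, against 8785 ± 479.6 in control mice (-0.23 ± 0.07 and -0.20 ± 0.07, adjusted p = 0.00765 and 0.0103). Under quantile normalization the change after SP70 at 40 mg/kg was -0.06 and not called (adjusted p = 0.436), and without replicate 3 of that group the call was lost as well. With arrays centred on their medians the call after SP300 was lost (adjusted p = 0.118). Kng1, kininogen, and Hrg, histidine-rich glycoprotein, were not called against control in any of the 6 groups. The probe sets of Kng1 were at -0.13 ± 0.06 and -0.13 ± 0.06 after SP300 at 200 mg/kg. Probe sets of Kng1 may also detect its close relative Kng2.

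Fibrinogen, an acute phase protein, was nearly flat. Fgg, Fga and Fgb, which encode its 3 chains, are consecutive protein-coding genes on chromosome 3. Fgb was the chain that was called, after SP70 at 10 mg/kg (0.18 ± 0.06, adjusted p = 0.044), SP70 at 20 mg/kg (0.15 ± 0.06, adjusted p = 0.0452) and SP30 (0.19 ± 0.06, adjusted p = 0.00978). Fgb signals after SP30 were 98717, 105867, 106891, 105624 and 109548, against 91705, 92045, 91878, 88674 and 96452 in control mice, and these 2 groups did not overlap. The calls after SP70 were lost in 14 and 13 of 21 settings, among them both other scalings and leaving out control replicate 1, 2, 3 or 4, treated replicate 1, 4 or 5 at 10 mg/kg or treated replicate 2, 4 or 5 at 20 mg/kg, with adjusted p up to 0.303 and 0.539, while the call after SP30 held in all settings run. Fga ranged from -0.17 after SP300 at 200 mg/kg to 0.10 after SP30, and Fgg from -0.11 to 0.07, with no call. The signals of Fga, Fgb, Fgg, F2, Kng1, Plg and Serpinc1 exceeded 48037 on all 35 arrays, which places them in the brightest 0.5% of all values. The log2 changes of these 7 genes lay between -0.19 and 0.08 after SP70 at 40 mg/kg, and those of the 14 other hepatocyte factors between -1.13 and 0.12. Whether the range of the array flattens changes at such signals was not tested.

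Several anticoagulant proteins from hepatocytes fell, Serpind1 in 4 groups. Serpind1, heparin cofactor II, had signals of 18907, 18597, 20048, 18470.2 and 18919 at 20 mg/kg and 18303, 14924, 13615, 16532 and 14241 at 40 mg/kg of SP70. They were 13607, 18984, 18596, 18677 and 17586 after SP30 and 13625, 15109, 15378, 17862 and 17668 after SP300 at 200 mg/kg, against 24449.7, 25793, 27396, 26006 and 23220.2 in control mice. The 4 groups lay below all control mice, and the log2 changes were -0.42 ± 0.10, -0.71 ± 0.10, -0.54 ± 0.10 and -0.68 ± 0.10, with adjusted p from 1.69e-07 to 0.000638. Proc, protein C, fell in the same 4 groups, by 0.33 on the log2 scale after SP70 at 40 mg/kg (adjusted p = 0.000175), with means of 23519 ± 2093 there and 29422 ± 1432 in control mice. With arrays centred on their medians the Proc calls after SP30 and SP300 were lost (adjusted p = 0.0791 and 0.0581). Its cofactor Pros1, protein S, which endothelium makes too, fell after SP70 at 40 mg/kg (-0.42 ± 0.11, adjusted p = 0.00218), SP30 (-0.28, adjusted p = 0.0368) and SP300 at 200 mg/kg (-0.31, adjusted p = 0.0307). The calls after SP30 and SP300 were lost without control replicate 1 or 2 or treated replicate 1, and after SP30 also without replicate 4, among 5 and 6 settings, with adjusted p up to 0.142 and 0.152. Serpinc1, antithrombin, fell by small amounts after SP70 at 40 mg/kg (-0.19 ± 0.06, adjusted p = 0.00806) and SP300 at 200 mg/kg (-0.21 ± 0.06, adjusted p = 0.00457), the second of which was lost with centred arrays (adjusted p = 0.134). Proz, protein Z, a cofactor in the inhibition of factor X, fell in mice given SP30 or the 2 higher doses of SP70, and at 40 mg/kg its 2 probe sets were at -0.38 ± 0.10 and -0.38 ± 0.13. At 20 mg/kg they disagreed, at -0.29 ± 0.10 and 0.04 ± 0.13, and the call of the first was lost without control replicate 1. Receptors and ligand of the protein C pathway had opposite signs in the same groups: Procr and Thbd were called higher and Proc lower after SP70 at 20 and 40 mg/kg, SP30 and SP300 at 200 mg/kg.

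The other factors of thrombin generation changed little. F2, prothrombin, was called in 1 group, SP300 at 200 mg/kg (-0.14 ± 0.05, adjusted p = 0.0408), a call lost in 12 of 21 settings, among them leaving out control replicate 2, 3, 4 or 5 or treated replicate 2, 3 or 5, with adjusted p up to 0.442. F9, factor IX, was not called against control and ranged from -0.08 to 0.17. F5, the cofactor of factor X, fell to 22456 ± 1633 in mice given SP70 at 40 mg/kg and 22567 ± 1534 in those given SP30, against 26605 ± 2728 in control mice (-0.24 ± 0.07 and -0.23 ± 0.07, adjusted p = 0.00705 and 0.00798). The other F5 probe set was at -0.41 ± 0.08 and -0.36 ± 0.08 after SP70 at 40 mg/kg and SP30, both called. The F5 probe sets disagreed after SP300 at 200 mg/kg. There the brightest was at -0.15 ± 0.07 and not called (adjusted p = 0.145). The other was at -0.45 ± 0.08 and called (adjusted p = 9.02e-05 in limma over all kept probe sets). F10, factor X, rose after SP70 at 10 mg/kg (0.31 ± 0.07, adjusted p = 0.00286) and SP30 (0.19 ± 0.07, adjusted p = 0.03), and the second call was lost without control replicate 4 or 5 or SP30 replicate 2, 3 or 5 (adjusted p up to 0.0866). Its 3 probe sets disagreed in size: after SP70 at 40 mg/kg the brightest was at 0.12 ± 0.08 and not called (adjusted p = 0.234), and the other two were at 0.44 ± 0.10 and 0.64 ± 0.11 and called. F10 lies between F7 and Proz on chromosome 8, and these neighbours were called lower after SP30 while F10 was called higher. The F7 and F10 calls there were each lost in several settings, and the difference between these genes was not tested.

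Between the doses of SP70, the lower step called hepatocyte factors and the upper step called genes of both sets. At 20 against 10 mg/kg, 0 higher and 6 lower genes were called among the 31, beside 4.98% higher and 12% lower among all genes, and those called lower were F7, F13b, Proc, Proz, Serpind1 and Klkb1, all hepatocyte factors. At 40 against 20 mg/kg, Procr, Thbd and Plaur were higher and F8, F13b and Serpind1 lower, beside 2.79% higher and 8.68% lower among all genes. Quantile normalization and centred arrays both gave 3 higher and 1 lower for this step. At 40 against 10 mg/kg, 3 higher and 17 lower were called, beside 5.21% higher and 25.3% lower among all genes, and quantile normalization gave 3 higher and 8 lower. The median of all genes in that comparison was -0.13, and 0.00 after quantile normalization. The median of the 31 genes was -0.21 without it. A linear slope over 0 to 40 mg/kg was called for 17 of the 31 genes, 4 higher and 13 lower, beside 14.8% higher and 30.4% lower among all genes. F13a1 was called for this slope, though not between 40 and 10 mg/kg.

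**Figure D4:**
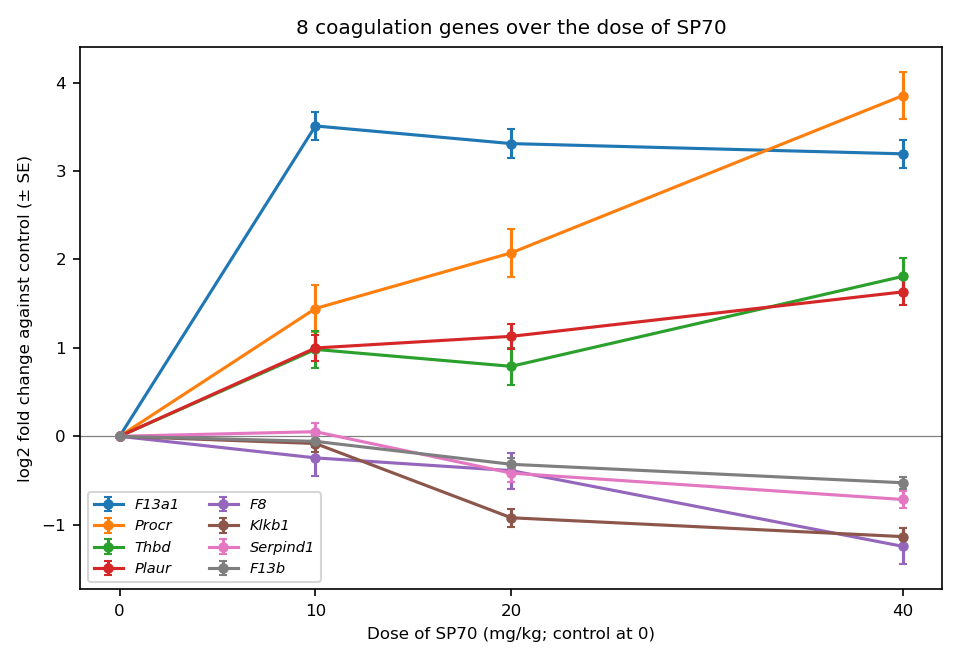
Log2 fold change against control (± SE) of 8 genes over the doses of SP70 in mg/kg, with control at 0. F13a1 is at its level from 10 mg/kg on, Procr has a higher mean at each dose, Thbd and Plaur are up at 10 mg/kg and higher again at 40 mg/kg, F8 moves mainly between 20 and 40 mg/kg, and Klkb1 falls between 10 and 20 mg/kg.

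At the equal dose of 10 mg/kg the response differed between particles. SP30 against SP70 gave 2 higher and 10 lower, beside 5.4% higher and 23.6% lower among all genes, and 2 higher and 4 lower with centred arrays. Procr was higher after SP30 by 2.28 ± 0.27 (adjusted p = 1.18e-07) and Plaur by 0.68 ± 0.14 (adjusted p = 0.000484), with SP30 first in each log2 difference. For F8 the difference was -0.98 ± 0.20 and for Klkb1 -0.98 ± 0.10 (adjusted p = 0.000385 and 1.02e-08). F13a1 differed by 0.10, with an interval of -0.22 to 0.43, and was not called (adjusted p = 0.68). SP30 against SP300 gave 5 higher and 12 lower, beside 16.2% higher and 35.6% lower, and 9 higher and 13 lower after quantile normalization, with F13a1 at least 9.42-fold and Procr at least 8.19-fold higher. SP70 against SP300 gave 5 higher and 2 lower, beside 10.5% higher and 10.2% lower, and 5 higher and 1 lower with centred arrays, with F13a1 at least 8.77-fold higher and Thbd 1.65-fold higher.

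At the toxic doses, SP30 at 10 mg/kg and SP70 at 40 mg/kg did not differ detectably in these genes after adjustment. In their direct comparison 0 of 31 genes were called in limma, beside 3.68% higher and 2.03% lower among all genes. Before adjustment 6 of the 31 had a p below 0.05, and the share of all genes at that threshold was not computed. The 95% intervals of the difference were -0.68 to 0.42 for Procr, -0.40 to 0.43 for F8, -0.13 to 0.28 for Klkb1, -0.98 to -0.13 for Thbd and 0.09 to 0.74 for F13a1. The last 2 intervals leave out 0 before adjustment, and their adjusted p were 0.118 and 0.127. The lack of a call does not show that the particles act alike. SP300 at 200 mg/kg differed from both. SP30 against SP300 at 200 mg/kg gave 8 higher and 5 lower, beside 11.6% higher and 17.5% lower, and 5 higher and 4 lower with centred arrays. SP70 at 40 mg/kg against it gave 4 higher and 4 lower, beside 5.04% higher and 10.4% lower. For this pair quantile normalization gave 5 higher and 3 lower and centred arrays 4 higher and 6 lower, so the balance of directions depends on the scaling. F13a1, Procr, Plaur and Thbd were higher than after SP300 at 200 mg/kg in both comparisons, by 1.00, 2.25, 0.85 and 0.60 after SP30 and by 0.58, 2.38, 0.81 and 1.16 after SP70 at 40 mg/kg. F8 was lower in both (-0.70 and -0.72), as was Klkb1 (-0.26 and -0.34). SP300 itself at 200 against 10 mg/kg gave 3 higher and 16 lower, beside 9.39% higher and 22.4% lower, and 4 higher and 6 lower after quantile normalization or 4 higher and 5 lower with centred arrays. The comparisons share groups and are not independent.

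A list of 30 other genes of clotting, vitamin K handling and plasmin formation, 25 of them tested, gave 10 higher and 0 lower after SP70 at 10 mg/kg, beside 12.5% higher and 5.69% lower among all genes. At 20 mg/kg the counts were 12 and 3, beside 18.8% higher and 20.9% lower, and at 40 mg/kg 11 and 6, beside 15.6% higher and 28.8% lower. After SP30 11 were higher and 4 lower, beside 18% higher and 31.3% lower, and after SP300 at 200 mg/kg 8 and 2, beside 12.6% higher and 18% lower. After SP300 at 10 mg/kg 0 were called in limma, beside 0.923% higher and 0.244% lower among all genes. Before adjustment 4 had a p below 0.05, and the share of all genes at that threshold was not computed. Thbs1, thrombospondin 1 of platelets and matrix, had the largest rise, 3.03 ± 0.36 after SP30 (adjusted p = 1.29e-08), with mean signals of 525 ± 104 there and 62.7 ± 42.6 in control mice, where every mouse was below the filter, so that the size depends on the pseudocount. Fgl2, a prothrombin-cleaving enzyme of macrophages and endothelium, rose by 1.87 ± 0.22 after SP30 and 0.87 ± 0.22 after SP70 at 40 mg/kg. Fgl1, a fibrinogen-like protein secreted by hepatocytes, rose by 1.38 ± 0.15 after SP30, 1.33 ± 0.15 after SP70 at 40 mg/kg and 1.24 ± 0.15 after SP300 at 200 mg/kg. Anxa2, a cell surface receptor for plasminogen and tPA, rose by 1.04 ± 0.13 in mice given SP70 at 40 mg/kg and 0.97 ± 0.13 in those given SP30. Anxa5, which binds exposed phosphatidylserine, rose by 0.99 ± 0.11 after SP30 (adjusted p = 3.15e-09). Serpina10, the protein Z-dependent inhibitor of factor X made by hepatocytes, rose to 49959 ± 1356 after SP30 and 48833 ± 2999.8 after SP70 at 40 mg/kg, against 26615 ± 4106 in control mice (0.92 ± 0.08 and 0.89 ± 0.08, adjusted p = 8.93e-12 and 3.34e-11). Its cofactor Proz was called lower in both groups.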

How the data were processed

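The values are probe set intensities on a linear scale as deposited by the authors, made with MAS5 per the submitters' processing notes, from biotin-labelled RNA on 1 array per mouse. How the arrays were scaled is not stated there, and no further scaling was applied. Signals were raised by 12.5, their 10th percentile, before log2. Probe sets were kept if 5 or more arrays exceeded 165, the overall median (26923 of 45101; 22671 of them with 1 gene in the platform annotation), and each gene was read from the kept single-gene probe set with the highest mean signal. Detection and saturation calls are not used here.

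A limma model (version 3.58.1, R 4.3.3) with 7 group means and a variance trend was fitted to all 35 arrays. Adjusted p-values are from limma's two-sided moderated test with Benjamini-Hochberg adjustment over 12679 genes, with a threshold of 0.05. SE is that of the fit, and values after a mean are SD. The fit was tested on simulated data. The genes described, the lists and the alternatives were chosen with earlier results of these data known. Named with all their values are genes called with a log2 change of at least 1 in size with all 5 mice on 1 side of the control mean (F8, F13a1, Plau, Plaur, Thbd, Procr and Klkb1). F3, F11, Fgb and Serpind1 were added after their values were seen. Of the other pathway genes, the 6 with the smallest adjusted p are named. The labels call the samples biological replicates. For the pairs of groups, signed changes are in log2 units, with the treated or higher-dose group, or the smaller particle, over the other. Replicate numbers are shared between groups, but the labels tie them to nothing shared, and they were used as a block in an alternative only.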

Additional observations from a re-analysis of the deposited data

Results flagged for a closer look

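In 13 of 217 groups of 5 signals (31 genes in 7 groups), 1 mouse stood apart from the other mice by Dixon's test at the 95% level. Chance alone flags about 1 in 20 such groups. F3 was at 639 in replicate 2 of the mice given SP300 at 10 mg/kg, above the other mice at 242 to 314. Replicate 1 of the mice given SP70 at 10 mg/kg had 446 for F8, below the 689.7 to 773 of the others. For F11, replicate 1 of the control mice stood below the range of the other mice, at 5641 against 8686 to 9795. F13a1 was at 151 in replicate 2 of the control mice, above the other mice at 103 to 109.9. Replicate 3 of the mice given SP70 at 20 mg/kg had 22695 for F13b, above the 19912 to 20512 of the others. For Plg, replicate 3 of the mice given SP70 at 40 mg/kg stood below the range of the other mice, at 55395 against 67041 to 70142. Proc was at 31970.4 in replicate 3 of the control mice, above the other mice at 28629.8 to 28949. Replicate 3 of the mice given SP70 at 40 mg/kg had 852 for Procr, below the 1641 to 2139 of the others. For Proz, replicate 5 of the mice given SP70 at 20 mg/kg stood below the range of the other mice, at 11916 against 12682 to 12941. Serpinc1 was at 56806 in replicate 4 of the mice given SP300 at 200 mg/kg, above the other mice at 49959 to 51707. Replicate 1 of the mice given SP30 at 10 mg/kg had 13607 for Serpind1, below the 17586 to 18984 of the others. For Klkb1, replicate 5 of the mice given SP70 at 40 mg/kg stood below the range of the other mice, at 6906 against 9291 to 9769. Klkb1 was at 7801 in replicate 1 of the mice given SP30 at 10 mg/kg, below the other mice at 9526 to 10224. Left out in turn, none of the mice given SP70 at 40 mg/kg ended the calls of Procr or Klkb1 against control, while the rise of F11 after SP30 was lost without control replicate 1.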

How the results depend on the processing

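The number of arrays, 5 in each group, limits the precision, and signals near the filter (Plau, Plat, F3) or above 48037 (7 hepatocyte factors) carry the least. Pseudocounts of 1 and 50, both filters, the mean of all probe sets, the second probe set and the fit without a variance trend moved none of the 17 total counts of called genes by over 1.5 times. Of the 34 counts split by direction, they moved 4 without a filter, 3 with the second probe set, 2 with the 75th percentile filter and 1 each with the mean of probe sets and without the trend, all among genes called lower. These were SP70 at 10 mg/kg against control (1, and 0), 40 against 20 mg/kg (3, and 1 to 5), SP70 against SP300 at 10 mg/kg (2, and 1) and SP30 against SP300 at 200 mg/kg (5, and 3). The count after SP300 at 200 mg/kg was 14 and became 6 with arrays centred on their medians. For SP70 at 40 against 10 mg/kg it was 20, and 11 after quantile normalization. For SP30 against SP70 at 10 mg/kg it was 12, and 6 with centred arrays. For SP300 at 200 against 10 mg/kg it was 19, and 10 after quantile normalization, 9 with centred arrays and 12 with only the groups compared in the fit, and the cause was not tested. Among log2 changes called before or after, those that changed sign were those of Proz after SP70 at 20 mg/kg with its second probe set (0.0419), F10 after SP300 at 200 mg/kg with its second probe set (0.40, adjusted p = 0.00437), and F2 and F9 for SP70 at 40 against 10 mg/kg after quantile normalization (0.0016 and 0.0024). Signs of changes that were called with neither probe set also turned with the second one. For Tfpi it gave 0.13, 0.50 and 0.18 at 10, 20 and 40 mg/kg of SP70 and 0.27 after SP300 at 200 mg/kg, where the first gave -0.13, -0.10, -0.30 and -0.11. For Proz after SP300 at 200 mg/kg it gave -0.28, where the first gave 0.02.

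With 1 mouse left out, the counts against control ran from 7 to 9, 10 to 15 and 14 to 16 for SP70 at 10, 20 and 40 mg/kg, 16 to 18 for SP30, always 0 for SP300 at 10 mg/kg and 11 to 13 for SP300 at 200 mg/kg. Between doses of SP70 they ran from 4 to 6 for 20 against 10, 3 to 7 for 40 against 20 and 13 to 23 for 40 against 10 mg/kg, and 16 to 19 for the slope. Against SP70 at 10 mg/kg, SP30 had 7 to 12, against SP300 at 10 mg/kg 16 to 21, against SP70 at 40 mg/kg 0 to 1 and against SP300 at 200 mg/kg 8 to 13. SP70 had 4 to 7 against SP300 at 10 mg/kg and 7 to 10 at the toxic doses, and SP300 had 15 to 20 between its doses. The mice behind the moves over 1.5 times were SP70 20 mg/kg replicate 3 or 4 (3 for 40 against 20 mg/kg), SP70 40 mg/kg replicate 3 (13 for 40 against 10 mg/kg, and 1 for SP30 against it), SP30 replicate 1 (7 against SP70 at 10 mg/kg), replicate 4 (8 against SP300 at 200 mg/kg) and replicate 5 (1 against SP70 at 40 mg/kg), and SP300 10 mg/kg replicate 3 (4 for SP70 against it). No pairing of the mice by replicate number was seen over all genes: same-numbered mice of different groups had a mean correlation of deviations of -0.000671 over 105 pairs (-0.103 to 0.112), and other numbers 0.000164. Such a mean cannot show a pairing that touches few genes or few groups. With the replicate block the counts were 8, 13 and 15 for SP70 at 10, 20 and 40 mg/kg, 19 for SP30, 0 and 13 for SP300 at 10 and 200 mg/kg, all within 1.5 times. The block ended 8 single calls and added 1 among 311 log2 changes.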

Other observations

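Genes of the wider pathway that are not described above moved in the same livers, and they were chosen here after their values were seen. The vitamin K cycle, which several clotting factors and proteins C, S and Z need for their carboxylation, was represented by 3 tested enzymes. Vkorc1, the vitamin K epoxide reductase, fell after SP70 at 20 mg/kg (-0.30 ± 0.06), SP70 at 40 mg/kg (-0.43 ± 0.06) and SP30 (-0.45 ± 0.06), with adjusted p = 0.000267, 1.20e-06 and 4.22e-07 in limma. Ggcx, the carboxylase, fell after SP70 at 40 mg/kg (-0.41 ± 0.12, adjusted p = 0.00533) and was not called after SP30 (-0.23 ± 0.12, adjusted p = 0.113). Vkorc1l1, a relative of Vkorc1, was not called against control in any group. Hgfac, a liver protease that thrombin activates, fell after SP70 at 20 and 40 mg/kg, SP30 and SP300 at 200 mg/kg, with log2 changes of -0.39 ± 0.09, -0.49 ± 0.09, -0.59 ± 0.09 and -0.44 ± 0.09.

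On the side of cell surfaces, S100a10, the partner of annexin A2 in binding plasminogen, rose in the 5 groups in which Anxa2 rose, by 0.96 ± 0.14 after SP70 at 40 mg/kg, 0.78 ± 0.14 after SP30 and 1.12 ± 0.14 after SP300 at 200 mg/kg. F2r, the main thrombin receptor, fell after SP70 at 40 mg/kg (-0.63 ± 0.15, adjusted p = 0.000501) and SP30 (-0.63 ± 0.15, adjusted p = 0.000483). Klf4, a transcription factor known to act on the thrombomodulin gene in endothelium, rose after SP70 at 10, 20 and 40 mg/kg and SP30, by 0.67 ± 0.23, 0.59 ± 0.23, 1.14 ± 0.23 and 0.88 ± 0.23, and was at 0.48 ± 0.23 after SP300 at 200 mg/kg, which was not called. Its relative Klf2 was called after SP30 alone among the 6 groups (0.66 ± 0.18, adjusted p = 0.00307). Alternatives were not run for these genes.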
